A study of Rattus norvegicus with 6 samples.

Results

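The miRNAs described here are processed from the transcript that runs antisense to Rtl1 in the imprinted Dlk1-Dio3 domain. They were taken by name: every listed entry named for the hairpins miR-431, miR-433, miR-127, miR-434 or miR-136, with or without an arm suffix. This gave 9 of the 728 mature miRNAs in the deposited table. They were rno-miR-431 and both arms, 5p and 3p, of the other hairpins. Small RNA had been sequenced from neonatal Wistar rat cardiac fibroblasts (heart tissue, stage P1-P2) and from the exosomes that these cells released, with 3 libraries in each group. Exosomes are small membrane vesicles. Cells of both groups were grown with 10% serum. The exosomes were collected by filtration and ultracentrifugation of medium that cells had conditioned for 48 h with 1% serum freed of exosomes. The 48 h and the 1% serum are listed for the fibroblast samples too. The labels name no genetic change or drug, and do not say whether libraries of a group came from separate cultures, and each p-value reflects only how these libraries vary, a variation that may be technical.

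Dlk1-Dio3 is a domain in which the parental chromosomes are used differently: protein-coding genes such as Dlk1, Rtl1 and Dio3 are expressed from the paternal copy, and long noncoding RNAs and miRNAs from the maternal copy. Rtl1 is a gene derived from a retrotransposon, with roles in placenta and muscle. Because the miRNAs studied here are copied from the opposite strand of its coding sequence, they match the Rtl1 messenger RNA perfectly and can direct its cleavage, besides acting on other messages through the seed, bases 2 to 8 of the mature strand. miR-433 has been studied as a pro-fibrotic miRNA in cardiac fibroblasts, and miR-431 in muscle stem cells.

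In the RefSeq gene table of the assembly GRCr8, Mir431, Mir433, Mir127, Mir434 and Mir136 follow each other in this order on chromosome 6 and all lie within the bounds of Rtl1, which also hold Mir3543. Mature sequences were found in RefSeq's GRCr8 table for 7 of the 9 members. rno-miR-127-5p and rno-miR-136-5p are named only. The sequences are shown because they tell which members act through a common seed; the seed is in capitals, each reads 5′ to 3′, and all lie on the plus strand.

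rno-miR-431 (GRCr8 chr6:134326468-134326488): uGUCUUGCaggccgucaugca
rno-miR-433-5p (GRCr8 chr6:134327369-134327390): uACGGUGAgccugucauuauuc
rno-miR-433-3p (GRCr8 chr6:134327421-134327442): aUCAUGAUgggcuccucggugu
rno-miR-127-3p (GRCr8 chr6:134328510-134328531): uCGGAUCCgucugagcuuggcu
rno-miR-434-5p (GRCr8 chr6:134330413-134330435): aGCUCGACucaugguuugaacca
rno-miR-434-3p (GRCr8 chr6:134330451-134330472): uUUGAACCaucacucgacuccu
rno-miR-136-3p (GRCr8 chr6:134331383-134331404): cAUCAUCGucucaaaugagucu

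The 7 matched members had 7 different seeds, and none of these seeds was found in another of the 724 mature rat miRNAs of that table. The matched members are thus neighbours in the genome and not a seed family. GC content ranged from 40.9% in miR-136-3p to 59.1% in miR-127-3p, around the table's median of 47.6%. Both arms of miR-434 hold the same 9 bases, UUUGAACCA, the longest run shared by any pair of matched members. The hairpins of miR-433 and miR-434 are shown with the mature arms in capitals, since arm usage is described further on.

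Mir433 hairpin (GRCr8 chr6:134327358-134327450, plus strand): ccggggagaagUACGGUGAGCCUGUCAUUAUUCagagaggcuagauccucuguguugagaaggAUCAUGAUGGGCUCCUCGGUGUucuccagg
Mir434 hairpin (GRCr8 chr6:134330402-134330482, plus strand): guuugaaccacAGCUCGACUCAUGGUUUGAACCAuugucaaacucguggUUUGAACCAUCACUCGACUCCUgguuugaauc

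Depth differed widely between the groups. Total miRNA counts lay between 113129 and 120224 in exosomes and between 2439559 and 12508651 in fibroblasts. A single miRNA, miR-873-3p, took 84.9% to 90.1% of the exosome counts and 0.391% to 2.37% of the fibroblast counts, which left between 11825 and 18164 exosome counts for every other miRNA. One exosome read was thus worth 8.32 to 8.84 CPM (listed counts scaled to 1e+06 per library), or 55.1 to 84.6 CPM with miR-873-3p left out of the total. Values are given on both scales, since levels of exosome miRNAs relative to fibroblasts depend on this choice. The 7 fibroblast and mesenchymal markers together held 51.7% to 53.0% of fibroblast counts, against 0.00791% to 0.0172% for 6 cardiomyocyte markers, none of which was at 0 in all fibroblast libraries. In exosomes the mesenchymal markers held 0.177% to 1.36%, the cardiomyocyte markers 0.00252% to 0.0116%, and none of either list was at 0 in all libraries. All marker shares are of totals that include miR-873-3p, and they were not computed without it. The 2 endothelial markers (0.0840% to 0.0966% in exosomes, 0.0100% to 0.0152% in fibroblasts) and the 3 neural markers (0.103% to 0.176% against 0.0182% to 0.0611%) took larger shares in every exosome library, and their part in the results was not tested. The shares of the 5 blood markers found (0.0168% to 0.0230% against 0.00570% to 0.0299%) and of the 5 epithelial markers (0.0109% to 0.0349% against 0.0105% to 0.0261%) overlapped between the groups. Exosome libraries were numbered 1 and 2, and 1 carried no number; fibroblast libraries were numbered 1, 2 and 4.

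All 9 members had raw counts in all 6 libraries, but with few exosome reads, down to 1 for a member in a library. Their summed counts were 223 and 225 in exosome libraries 1 and 2 and 152 in the unnumbered one, against 12593, 48953 and 19141 in fibroblast libraries 1, 2 and 4. Their share of all counts averaged 0.171% ± 0.0378 over the 3 exosome libraries and 0.458% ± 0.299 over the 3 fibroblast libraries (± SD). The groups overlapped on this scale, with 0.199% in exosome library 2 and 0.197% in fibroblast library 1, and without fibroblast library 4 the fibroblast mean was 0.294%. With miR-873-3p out of the total, the shares were 1.36% ± 0.183 and 0.466% ± 0.308. On that scale every exosome library lay above every fibroblast library, so the order of the means turned with the choice of total.

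No member passed the test between exosomes and fibroblasts. Of the 9, 0 were higher and 0 lower (edgeR's quasi-likelihood test with TMM scaling and Benjamini-Hochberg adjustment over the 698 miRNAs tested, threshold 0.05), where 11.3% of all tested miRNAs were called higher and 18.6% lower. By unadjusted p under 0.05 the count of members was also 0, against 263 of all 698, and DESeq2's Wald test called 0 members as well. The authors' deposited table gave each of the 9 members an adjusted p of 1, where 7.28% of its miRNAs were under 0.05. In that table the log2 ratio of fibroblasts over exosomes was 1.62 for miR-127-3p and lay between -1.17 (miR-136-3p) and 0.23 (miR-433-5p) for the other members. On TMM-scaled CPM the groups overlapped for each of the 9 members, where 39.3% of tested miRNAs had no overlap. The median log2 fold change, exosomes minus fibroblasts, was 0.17 over the members and -0.15 over all tested miRNAs.

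miR-127-3p, from the hairpin in the middle of the cluster, was the most abundant member in every library. It had 72, 132 and 121 counts in exosome libraries 1, 2 and unnumbered, and 9615, 27675 and 17948 in fibroblast libraries 1, 2 and 4. These were 599, 1167 and 1017 CPM in exosomes (95% Clopper-Pearson intervals 469 to 754, 976 to 1384 and 844 to 1215) and 1508, 2212 and 7357 CPM in fibroblasts. On this scale every exosome library lay below every fibroblast library, and fibroblast library 4 stood well above libraries 1 and 2. The share of all miRNAs with such a gap was not computed, so how common it is was not tested. With TMM scaling the unnumbered exosome library (2348 CPM) lay above fibroblast library 1 (1558) and fibroblast library 2 (1113), so the groups overlapped. Exosome libraries 1 and 2 (446 and 1034 CPM) stayed below all fibroblast values. Without miR-873-3p in the total, the exosome values became 3964, 9206 and 10233 CPM against 1527, 2221 and 7536 in fibroblasts, and the groups overlapped. By count, miR-127-3p ranked 46, 20 and 21 of the 728 miRNAs in exosomes and 52, 41 and 20 in fibroblasts.

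The fitted log2 fold change of miR-127-3p was -1.65 (SE 1.01, edgeR adjusted p = 0.23; 0.0042 to 0.87 over 15 other settings). It depended on 1 library in each group and on the scaling. Without fibroblast library 4 it was -0.21 (adjusted p = 0.87). Without the unnumbered exosome library it was -2.62 and was called lower (adjusted p = 0.037), where 19.3% of tested miRNAs were. With total counts as library size it was -1.99 (adjusted p = 0.0083, 17.3% called lower). With total counts plus the unnamed remainder, the last row of the normalized table, labelled "rest", it was -2.59 (adjusted p = 0.0042, 28.4% called lower). With miR-873-3p left out of the library size and no TMM it turned to 1.05 and was not called (adjusted p = 0.17).

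**Figure D1:**
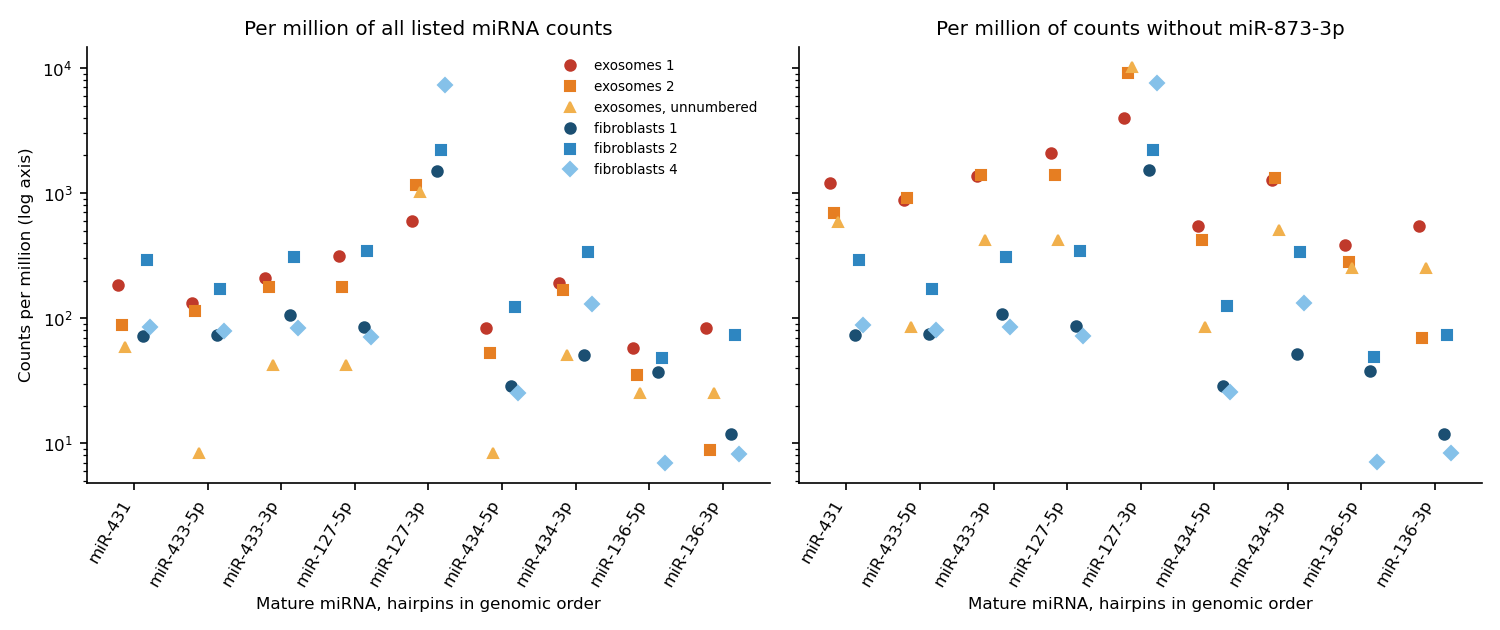
Level of each of the 9 miRNAs in every library, as CPM on a log axis, over all listed counts (left) and over counts without miR-873-3p (right); each point is 1 library and hairpins stand in genomic order. miR-127-3p is highest in every library. On the left the groups overlap for every member but miR-127-3p, and the share of all miRNAs without overlap was not computed on this scale. On the right the exosome points move up and 5 of 9 lie above all fibroblast points, against 50.2% of tested miRNAs.

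Reads of miR-431, the first hairpin of the cluster, numbered 22, 10 and 7 in exosomes 1, 2 and unnumbered and 463, 3668 and 209 in fibroblasts 1, 2 and 4. In CPM that is 183, 88.4 and 58.8 against 72.6, 293 and 85.7, so the groups overlapped, with fibroblast library 2 highest and the unnumbered exosome library lowest. The log2 fold change was 0.07 (SE 0.62, edgeR adjusted p = 0.95).

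miR-433-3p had 25, 20 and 5 exosome counts and 682, 3869 and 203 fibroblast counts, or 208, 177 and 42.0 against 107, 309 and 83.2 CPM. Its partner miR-433-5p had 16, 13 and 1 exosome counts and 471, 2140 and 193 fibroblast counts, or 133, 115 and 8.40 against 73.9, 171 and 79.1 CPM. For both, on this CPM scale, exosome libraries 1 and 2 fell within the fibroblast range and the unnumbered exosome library below it. Their log2 fold changes were 0.17 (SE 0.61) and -0.12 (SE 0.61), with edgeR adjusted p = 0.87 and 0.91.

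The 5p arm of miR-127, far scarcer than the 3p arm, had 38, 20 and 5 exosome counts and 5044 fibroblast counts in all, 4327 of them in library 2. In CPM over all counts these were 316, 177 and 42.0 against 85.3, 346 and 70.9, again overlapping on this scale. The log2 fold change was 0.52 (SE 0.61, edgeR adjusted p = 0.57). In exosomes, this member also differed most between the deposited tables: the whole reads behind the normalized table came to 15, 14 and 4 in the exosome libraries, or 33 instead of 63 in sum, and with those reads the log2 fold change was -0.26 (adjusted p = 0.81). For the other 8 members the exosome sums of the tables differed by at most 6 reads, the 325 and 319 of miR-127-3p.

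miR-434-3p had 23, 19 and 6 exosome counts and 324, 4208 and 317 fibroblast counts, or 191, 168 and 50.4 against 50.8, 336 and 130 CPM. miR-434-5p had 10, 6 and 1 against 182, 1549 and 61 counts, or 83.2, 53.0 and 8.40 against 28.5, 124 and 25.0 CPM. On this CPM scale, fibroblast library 2 was highest for both, and the unnumbered exosome library lowest. With TMM scaling, fibroblast library 1 was lowest for miR-434-3p, at 52.5 CPM against 116 in the unnumbered exosome library. Their log2 fold changes were 0.10 (SE 0.61) and 0.18 (SE 0.67), with edgeR adjusted p = 0.92 and 0.87.

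The last hairpin gave the fewest reads. miR-136-5p had 7, 4 and 3 exosome counts and 237, 606 and 17 fibroblast counts, or 58.2, 35.4 and 25.2 against 37.2, 48.4 and 6.97 CPM. miR-136-3p had 10, 1 and 3 against 75, 911 and 20 counts, or 83.2, 8.84 and 25.2 against 11.8, 72.8 and 8.20 CPM. The 1 count of miR-136-3p in exosome library 2 was 0 in the reads behind the normalized table. On this CPM scale the groups overlapped for both arms, each of which rested on 14 exosome reads in all. The log2 fold changes were 0.81 (SE 0.76) and 1.04 (SE 0.78), with edgeR adjusted p = 0.46 and 0.35.

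Apart from miR-127-3p, the 8 members thus had log2 fold changes between -0.12 and 1.04, with a median of 0.18. With miR-873-3p left out of the library size and no TMM, their log2 fold changes were 2.47 to 3.30 and all 8 were called higher, but so were 54.3% of all tested miRNAs, and the median of all tested moved from -0.15 to 2.37. In CPM without miR-873-3p, 5 of the 9 members had every exosome library above every fibroblast library, against 50.2% of tested miRNAs. They were miR-431, miR-433-3p, miR-127-5p, miR-434-3p and miR-136-5p. With TMM after miR-873-3p was left out, 0 members were called higher and 0 lower, against 105 and 117 of all 695 tested. The log2 fold changes of the 8 then lay between 0.25 and 1.35. The median of the 8 minus that of all tested miRNAs was 0.33 with TMM scaling, 0.31 with total counts, 0.26 without miR-873-3p and 0.35 with the unnamed remainder. It moved more with the libraries used. It was 0.54 with the replicate block, a block on the library number in which only libraries 1 and 2 of each group set the changes. It was also 0.54 without the unnumbered exosome library. Without fibroblast library 1 it was 0.21 and without fibroblast library 2 it was 0.92, where the filter left fewer members in these 2 cases.

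**Figure D2:**
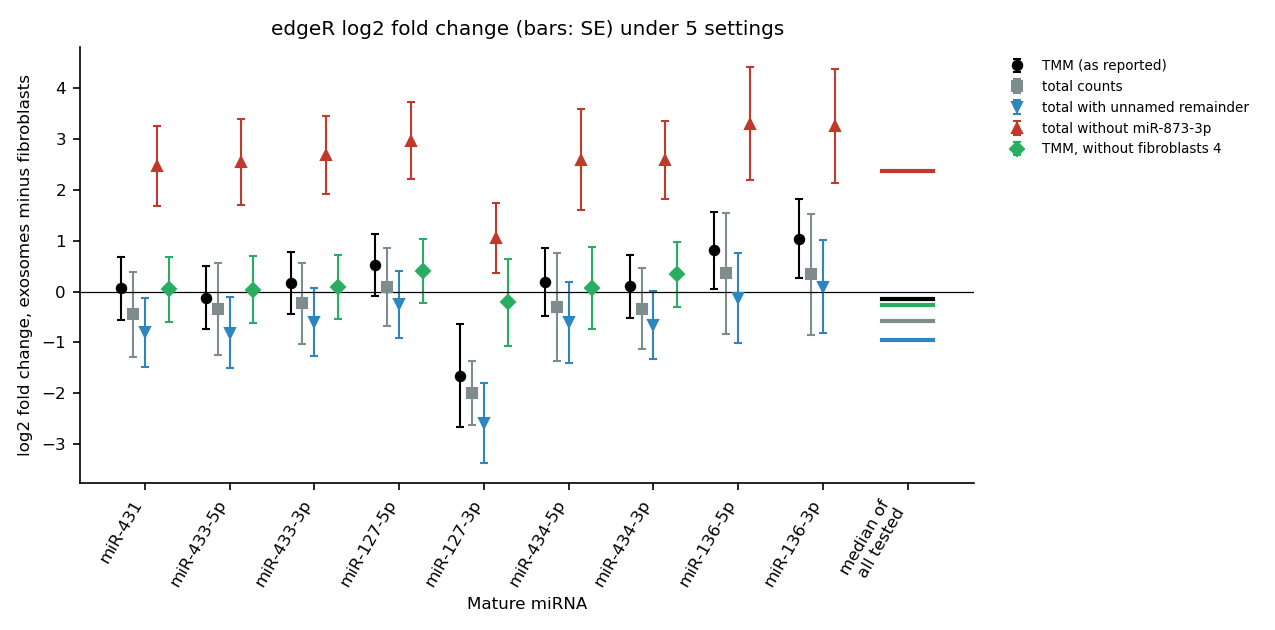
edgeR log2 fold change (exosomes minus fibroblasts) of the 9 miRNAs under 5 settings, with SE bars; horizontal strokes at the right give the median of all tested miRNAs under the same setting. The points of a setting move with its median, so the sign of most members turns with the scaling; miR-127-3p lies below the other members under each of the 4 scalings and close to them without fibroblast library 4, where both arms of miR-136 did not pass the count filter.

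The make-up of the member reads does not depend on any library scaling. miR-127-3p made up 32.3%, 58.7% and 79.6% of them in exosome libraries 1, 2 and unnumbered (95% Clopper-Pearson intervals 26.2 to 38.9, 51.9 to 65.2 and 72.3 to 85.7), and 76.4%, 56.5% and 93.8% in fibroblast libraries 1, 2 and 4. The means were 56.9% ± 23.7 (exosomes) and 75.6% ± 18.6 (fibroblasts; SD, n = 3 each), and the groups overlapped. Differences within a group were as large as those between groups: exosome libraries 1 and unnumbered, and fibroblast libraries 2 and 4, did not have overlapping intervals. The log2 fold change of miR-127-3p minus the median of the other members was -1.83, and became -0.30 without fibroblast library 4 and -2.96 without the unnumbered exosome library. This difference was not tested.

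**Figure D3:**
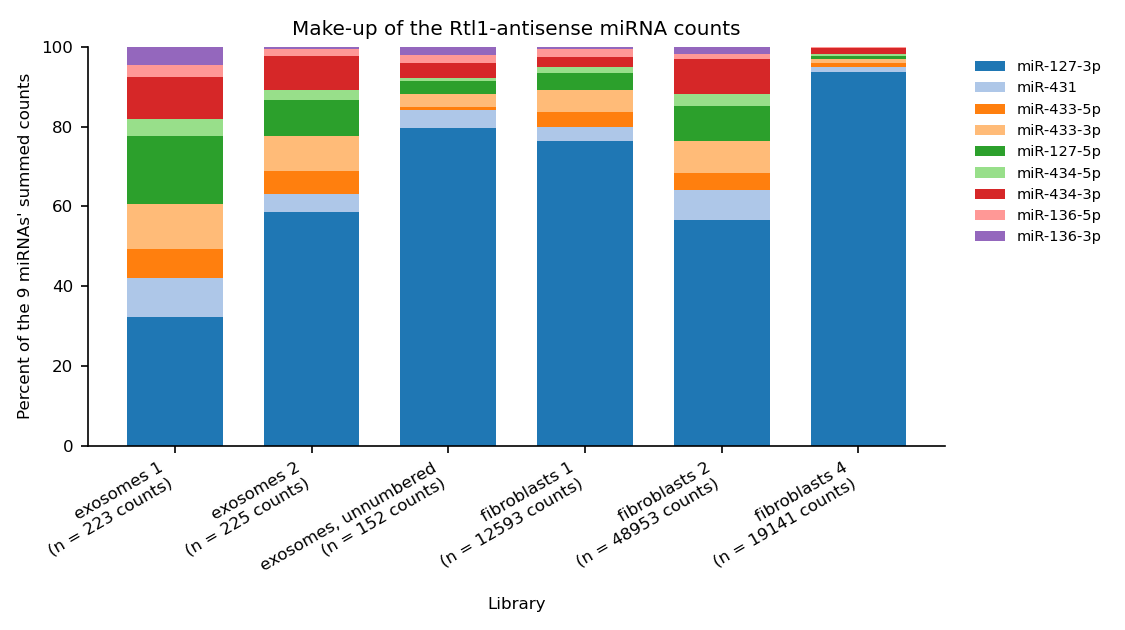
Share of each miRNA in the summed counts of the 9, per library, in percent; the number of counts behind each bar is under its name. miR-127-3p takes from 32.3% (exosomes 1) to 93.8% (fibroblasts 4), and its range overlaps between exosomes and fibroblasts.

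Arm usage was compared within each hairpin that had both arms listed, as the share of the 5p arm in the hairpin's counts. miR-127 was dominated by its 3p arm, with a 5p share of 17.2% ± 15.7 in exosomes and 6.61% ± 6.38 in fibroblasts (SD, n = 3 each; exact two-sided permutation p = 0.5). The 5p share was 34.5%, 13.2% and 3.97% in the exosome libraries 1, 2 and unnumbered and 5.35%, 13.5% and 0.955% in fibroblasts 1, 2 and 4. Exosome library 1 stood above the rest, and with the reads behind the normalized table its share was 18.1%. The difference between the group means, 10.6 percentage points, was 1.95 without exosome library 1 and 3.86 with the reads behind the normalized table.

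miR-433 used its arms more evenly, with 31.7% ± 13.0 from the 5p arm in exosomes and 41.7% ± 6.61 in fibroblasts (SD, n = 3 each; exact permutation p = 0.4). Its 5p share was 39.0%, 39.4% and 16.7% in exosome libraries 1, 2 and unnumbered, the last from 6 reads, and 40.9%, 35.6% and 48.7% in fibroblast libraries 1, 2 and 4. Without the unnumbered exosome library the difference of -10.0 percentage points was -2.52. For miR-434 the shares were 22.9% ± 8.07 and 26.3% ± 9.93 (exact permutation p = 0.7), and for miR-136 57.1% ± 20.4 and 54.0% ± 19.3 (exact permutation p = 0.7). Adjusted over the 4 hairpins the exact permutation p was 0.7 in each case, and 3 against 3 libraries cannot go below p = 0.1. The groups overlapped for all 4 hairpins. In fibroblasts, where reads were plentiful, the 5p share of miR-136 still ran from 39.9% (95% Clopper-Pearson interval 37.5 to 42.5) in library 2 to 76.0% (70.8 to 80.6) in library 1.

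**Figure D4:**
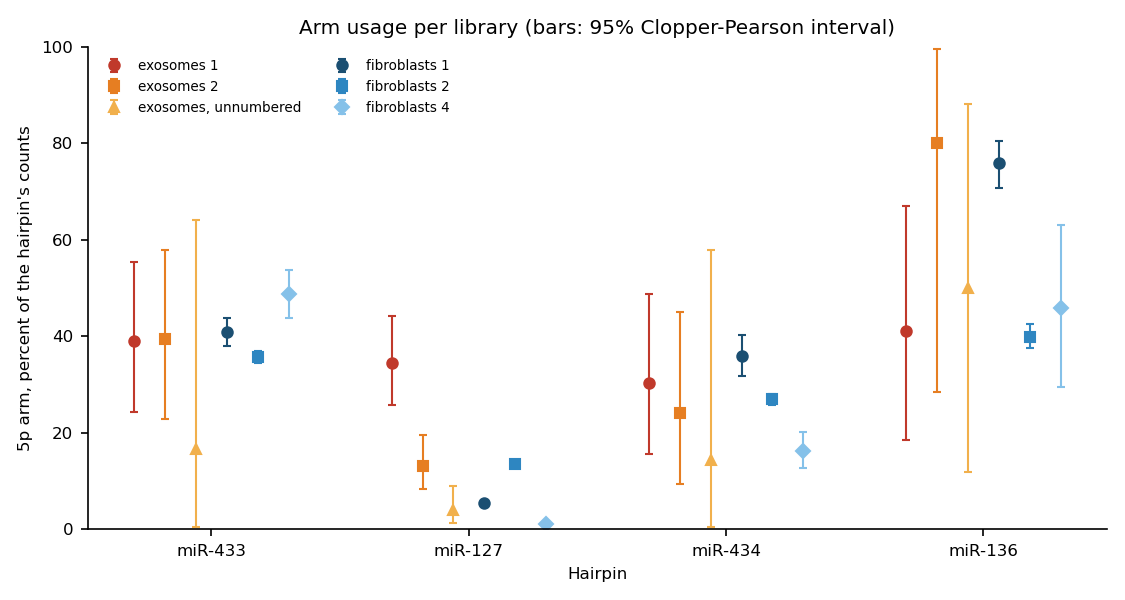
Share of the 5p arm in the counts of each hairpin, per library, with 95% Clopper-Pearson intervals that cover counting error only. Exosome intervals are wide (from 5 to 152 reads per hairpin), and the exosome and fibroblast points overlap for all 4 hairpins.

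A further miRNA of RefSeq lies on the other strand of the miR-434 hairpin, and was looked at after its values were seen. rno-miR-3543 is copied from the strand that also encodes Rtl1, and holds the full reverse complement of miR-434-3p, 22 bases; its seed is in capitals and differs from that of its partner.

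rno-miR-3543 (GRCr8 chr6:134330451-134330473, minus strand): cAGGAGUCgagugaugguucaaa

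It had 26, 24 and 17 exosome counts and 167, 978 and 132 fibroblast counts, and unlike its partner it was called higher (log2 fold change 2.30, SE 0.62, edgeR adjusted p = 0.0016; 5.1e-08 to 0.12 over 15 other settings). It was not called with total counts (1.85, adjusted p = 0.12) or with the unnamed remainder in the library size (1.42, adjusted p = 0.087). Whether the counting used strand is not given in the sources used here, so the reads of miR-3543 and miR-434-3p are separate only as far as the authors' counting separated them. The difference between the changes of these partners was not tested.

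Other miRNAs of the domain, taken by name and without miR-3543, gave a mixed picture beside the members. Of these other Dlk1-Dio3 miRNAs, 79 of 81 listed were tested, 18 were higher, 6 lower and their median log2 fold change was 0.77. Among all tested miRNAs, 11.3% were called higher and 18.6% lower. Among the proximal neighbours, the mature forms of miR-770, miR-673, miR-493, miR-337, miR-540 and miR-665, 4 of 11 tested were higher: miR-540-3p (log2 fold change 2.35, SE 0.70), miR-673-3p (2.75, SE 0.76), miR-673-5p (2.34, SE 0.74) and miR-770-5p (2.16, SE 0.75), named after their values were seen. The call of miR-673-3p rested on exosome library 1, with 395 counts against 14 and 7 in the other exosome libraries, and without it the value was -0.30 (edgeR adjusted p = 0.85). Each of the other 3 lost its call under at least 1 alternative: miR-540-3p with the unnamed remainder in the library size (adjusted p = 0.065), miR-673-5p without exosome library 2 (0.094) or fibroblast library 1 (0.076), and miR-770-5p at up to 0.13. miR-665, which had the most fibroblast counts of these but fewer exosome counts than miR-540-3p, miR-673-5p and miR-770-5p in every exosome library, was lower (-2.60, SE 0.81, edgeR adjusted p = 0.0069). That call was lost without fibroblast library 4 (-0.85, adjusted p = 0.28). It was also not called without exosome library 1 (adjusted p = 0.061) or with a block on the library number (-0.90, adjusted p = 0.31). With miR-873-3p left out of the library size and no TMM it turned to 0.38.

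Among the remaining lists, neither arm of miR-370 was called, and miR-370-3p had a log2 fold change of 0.30 (SE 0.62, edgeR adjusted p = 0.78). In the distal cluster, which includes miR-379, 14 of 66 tested were higher and 5 lower, with a median of 0.81; its most abundant miRNA, miR-668, was not called (-0.72, SE 0.93, edgeR adjusted p = 0.62). Whether the 0 of 9 called among the members differs from these shares was not tested.

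The miRNAs outside the group with levels most like the leading members over all 6 libraries were found by root-mean-square distance in log2 CPM (TMM-scaled, prior count 2). For miR-127-3p the nearest were miR-668, miR-125b-2-3p and miR-30d-5p, at distances of 1.13 to 1.23, so that none lay within 1 log2 unit. For miR-127-5p the nearest were miR-344a-3p (0.24), miR-339-5p (0.24) and miR-349 (0.28). The distance compares levels and shapes together, over libraries that share group and depth, and is a description only.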

How the data were processed

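For each mature miRNA the authors deposited raw counts, a normalized signal per library, and a comparison with fold change (ratio of means), its log2 value, p-value and adjusted p-value, per the file headers. The submitters' processing notes list CASAVA 1.8.2, cutadapt 1.2.1, DESeq and the build rn5. How reads were aligned and assigned, and which miRNA release was used, is not given in the sources used here. The normalized signal the authors deposited equals whole reads times 1 factor per library (100% of values within 0.05 of a whole read). Its last row, labelled "rest" and called the unnamed remainder here, held 63.1% to 84.4% of reads. It was left out of the tests except where stated.

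Counts were tested with edgeR 4.0.16 (R 4.3.3): filterByExpr (minimum count 10, minimum total 15; 30 of 728 removed, no member), TMM, quasi-likelihood test, two-sided. The filter works on CPM, so low miRNAs could pass through their exosome reads. Standard errors are the log2 fold change over the square root of F. DESeq2 1.42.0, other scalings, no filter, a block and leaving out each library were alternatives. The edgeR script was tested on simulated data, drawn for both groups from the mean fibroblast levels. The simulated libraries did not copy the miR-873-3p share of the exosome libraries, so this cannot tell which scaling is right. All 9 members are named by rule. Likeness, the other Dlk1-Dio3 lists and the markers followed fixed rules; members and lists were chosen with earlier results of these data known. A count of 0 would allow up to 25.0 to 26.5 CPM in exosomes and 0.240 to 1.23 in fibroblasts (3 counts). Neither intervals nor floors go beyond counting error. Whether PCR copies were counted as separate reads is not given in the sources used here. The exosome column without a number was used as a replicate without one.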

Additional observations from a re-analysis of the deposited data

How the results depend on the processing

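No member was called under the reported settings. With miR-873-3p left out of the library size and no TMM, 8 were higher. With TMM after miR-873-3p was left out, 0 were higher and 0 lower. Wherever miR-873-3p is said to be out of the library size, no TMM was used. Only 1 member, miR-127-3p, was called lower under any setting. This was with total counts, with the unnamed remainder in the library size, and without the unnumbered exosome library (0 to 1 over the libraries left out). Over all tested miRNAs, 79 higher and 130 lower became 43 and 121 with total counts, 378 and 36 without miR-873-3p in the library size, 35 and 195 with the unnamed remainder, and 46 (without exosome library 2) to 78 and 86 (without exosome library 1) to 140 on leaving out libraries. The other Dlk1-Dio3 miRNAs, 18 higher and 6 lower, became 58 and 0, and 9 and 10, without miR-873-3p in the library size and with the unnamed remainder, 20 and 3 with the replicate block, and 11 (without exosome library 2) to 17 and 2 (without fibroblast library 4) to 6 on leaving out libraries; 3 were lower without exosome library 1, fibroblast library 1 or fibroblast library 2. Without fibroblast libraries 1, 2 and 4 the filter kept 402, 359 and 414 miRNAs, and 7, 6 and 7 members. The summed share of the members in exosomes moved from 0.171% to 1.36% without miR-873-3p.

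Several log2 fold changes turned sign, among them those of miR-127-3p, miR-665 and miR-673-3p, which lay far from 0. With total counts miR-431 was -0.45, miR-433-3p -0.23, miR-434-3p -0.34, miR-434-5p -0.30 and miR-370-3p -0.10. With the unnamed remainder miR-127-5p was -0.25, miR-136-5p -0.13, miR-431 -0.80, miR-433-3p -0.61, miR-434-3p -0.65, miR-434-5p -0.61 and miR-370-3p -0.53. Without miR-873-3p in the library size miR-127-3p was 1.05, miR-433-5p 2.54, miR-665 0.38 and miR-668 2.23. With no filter miR-431 was -0.13, miR-433-3p -0.040, miR-434-3p -0.11 and miR-434-5p -0.052. With the reads behind the normalized table miR-127-5p was -0.26, miR-431 -0.054 and miR-434-3p -0.049. miR-433-5p was 0.25 with TMM after leaving out miR-873-3p. Leaving out single libraries gave -0.019 to 1.04 for miR-127-5p, -0.24 to 0.42 for miR-431, -0.14 to 0.48 for miR-433-3p, -0.56 to 0.13 for miR-433-5p, -0.26 to 0.52 for miR-434-3p, -0.36 to 0.39 for miR-434-5p, -0.13 to 0.39 for miR-370-3p and -0.30 to 3.13 for miR-673-3p. On leaving out single libraries the 5p share differed by -13.9 to -2.52 percentage points for miR-433 and by 1.95 to 17.2 for miR-127. It differed by 0.814 (miR-434) and -12.8 (miR-136) percentage points with libraries under 10 reads left out, and by -8.57 to 1.34 and -8.36 to 14.1 on leaving out single libraries. The cause of these turns was not tested.

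Numbers 1 and 2 occur in both groups. The labels do not say that a number marks a shared culture, so the number is not taken as a pairing. The deviations of same-numbered libraries from their group means had a Pearson's r of -0.07 and 0.16 across 698 miRNAs, which are not independent replicates. With few exosome reads for most miRNAs, these r values cannot tell whether the libraries were paired. With the replicate block, where only libraries 1 and 2 of each group set the log2 fold change, miR-433-5p was 0.31 and miR-668 0.20. No member was called with this block.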
